A study of Mus musculus with 2 samples.

Results

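The genes described here are the enzymes that write and erase DNA methylation, Tet1, Tet2, Tet3, Dnmt1, Dnmt3a and Dnmt3b, and 3 further genes that are recurrently mutated in clonal haematopoiesis, Asxl1, Jak2 and Ppm1d. Open chromatin at these 9 genes was measured by ATAC-seq, in which the Tn5 transposase inserts sequencing adapters where DNA is not covered by nucleosomes. An open region was counted for a gene when its summit lay in the gene body, or within 100 kb of one of the gene's transcription start sites with that start the nearest protein-coding one. A region that met these terms for several genes was counted for each of them. By this rule 22 of the 28438 open regions of the series fell to the 9 genes, out of 21853 protein-coding genes. The regions are the merged peaks of the authors' conservative set, which was made from both replicates.

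The cells were primary monocytes of peripheral blood, taken from adult mice of the strain C57BL/6J at 5 to 6 weeks of age. The series held 1 group of 2 biological replicates with 50000 cells each, with no treatment, no engineered allele and no second cell type or control group. Both replicates carry 1 donor identifier, and whether they are separate animals is not stated. Their spread may therefore be technical. Library depth is unknown for lack of read counts, and no interval that needs a count is printed. With 1 group there is no comparison of conditions and no p-value, and 2 samples limit the precision of every mean.

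DNA methyltransferases add a methyl group to cytosine, mostly in CpG dinucleotides: DNMT3A and DNMT3B set new marks, and DNMT1 copies them to the daughter strand after replication. TET enzymes oxidise methylcytosine and start its removal. Loss-of-function mutations of DNMT3A and TET2, truncating mutations of ASXL1 and PPM1D and activating mutations of JAK2 let blood stem cell clones expand with age. Mutant clones give rise to circulating monocytes.

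The labelled cell type was checked against defining genes. All 12 monocyte markers, among them Csf1r and Cx3cr1, had at least 1 assigned region, with a median of 6.5 regions per gene. Among markers of other blood cells the count with a region was 3 of 6 for T cells, 4 of 5 for B cells, 3 of 5 for NK cells, 4 of 7 for neutrophils, 1 of 5 for the erythroid lineage, 2 of 4 for platelets and 1 of 2 for progenitors. Together 18 of these 34 genes had a region and 5 an open promoter, and of the 12 monocyte markers 11 had an open promoter. Over all protein-coding genes 58.2% had a region and 46.6% an open promoter. Cd4, Cd8a, Gata1 and Kit had no region, whereas the T cell gene Cd3d had an open promoter at a fold of 12.1, above the 7.17 of the highest monocyte marker, and the NK cell gene Klrb1c had 7 regions and Cd34 had 4. The other open promoters were those of Pax5, Cd79b, Prf1 and Klf1. These genes were named after their values had been seen. The part that other blood cells play in the regions below was not tested. A peak list from bulk cells also cannot tell a site open in few cells from one weakly open in many.

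Of the 9 genes, 7 had at least 1 open region and 6 had an open promoter, a region reaching within 1 kb of a start of one of the gene's protein-coding transcripts. Over all protein-coding genes the corresponding shares were 58.2% and 46.6%. Tet2, Tet3, Dnmt1, Dnmt3a, Asxl1 and Ppm1d had the open promoters. Jak2 had 3 regions but none within 1 kb of a start, and Tet1 and Dnmt3b had no region. By number of regions the order was Dnmt3a with 6, Tet2 with 4, Tet3, Asxl1 and Jak2 with 3 each, Ppm1d with 2 and Dnmt1 with 1. This order did not hold in the stricter list of either replicate: Dnmt3a had 3 regions in each, level with Jak2 in replicate 2 and with Asxl1 in replicate 1, Tet2 had 1 in replicate 1 and 2 in replicate 2, and Tet3 had 1 and 2. When only regions at or above the median −log10 p were kept, Jak2 with 3 was ahead of Dnmt3a with 2. The median over the 9 genes was 3.0 regions, beside 1.0 over all protein-coding genes and 2.0 over those with an open promoter. Only 4.26% of protein-coding genes had 6 regions or more, and 16.6% had 3 or more. The 9 genes are long, from 35.8 to 108 kb against a median of 17.4 kb over all protein-coding genes, and the part of gene length in these counts was not tested. By position, 6 regions were at promoters, 6 elsewhere in gene bodies and 10 upstream of the genes.

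**Figure D1:**
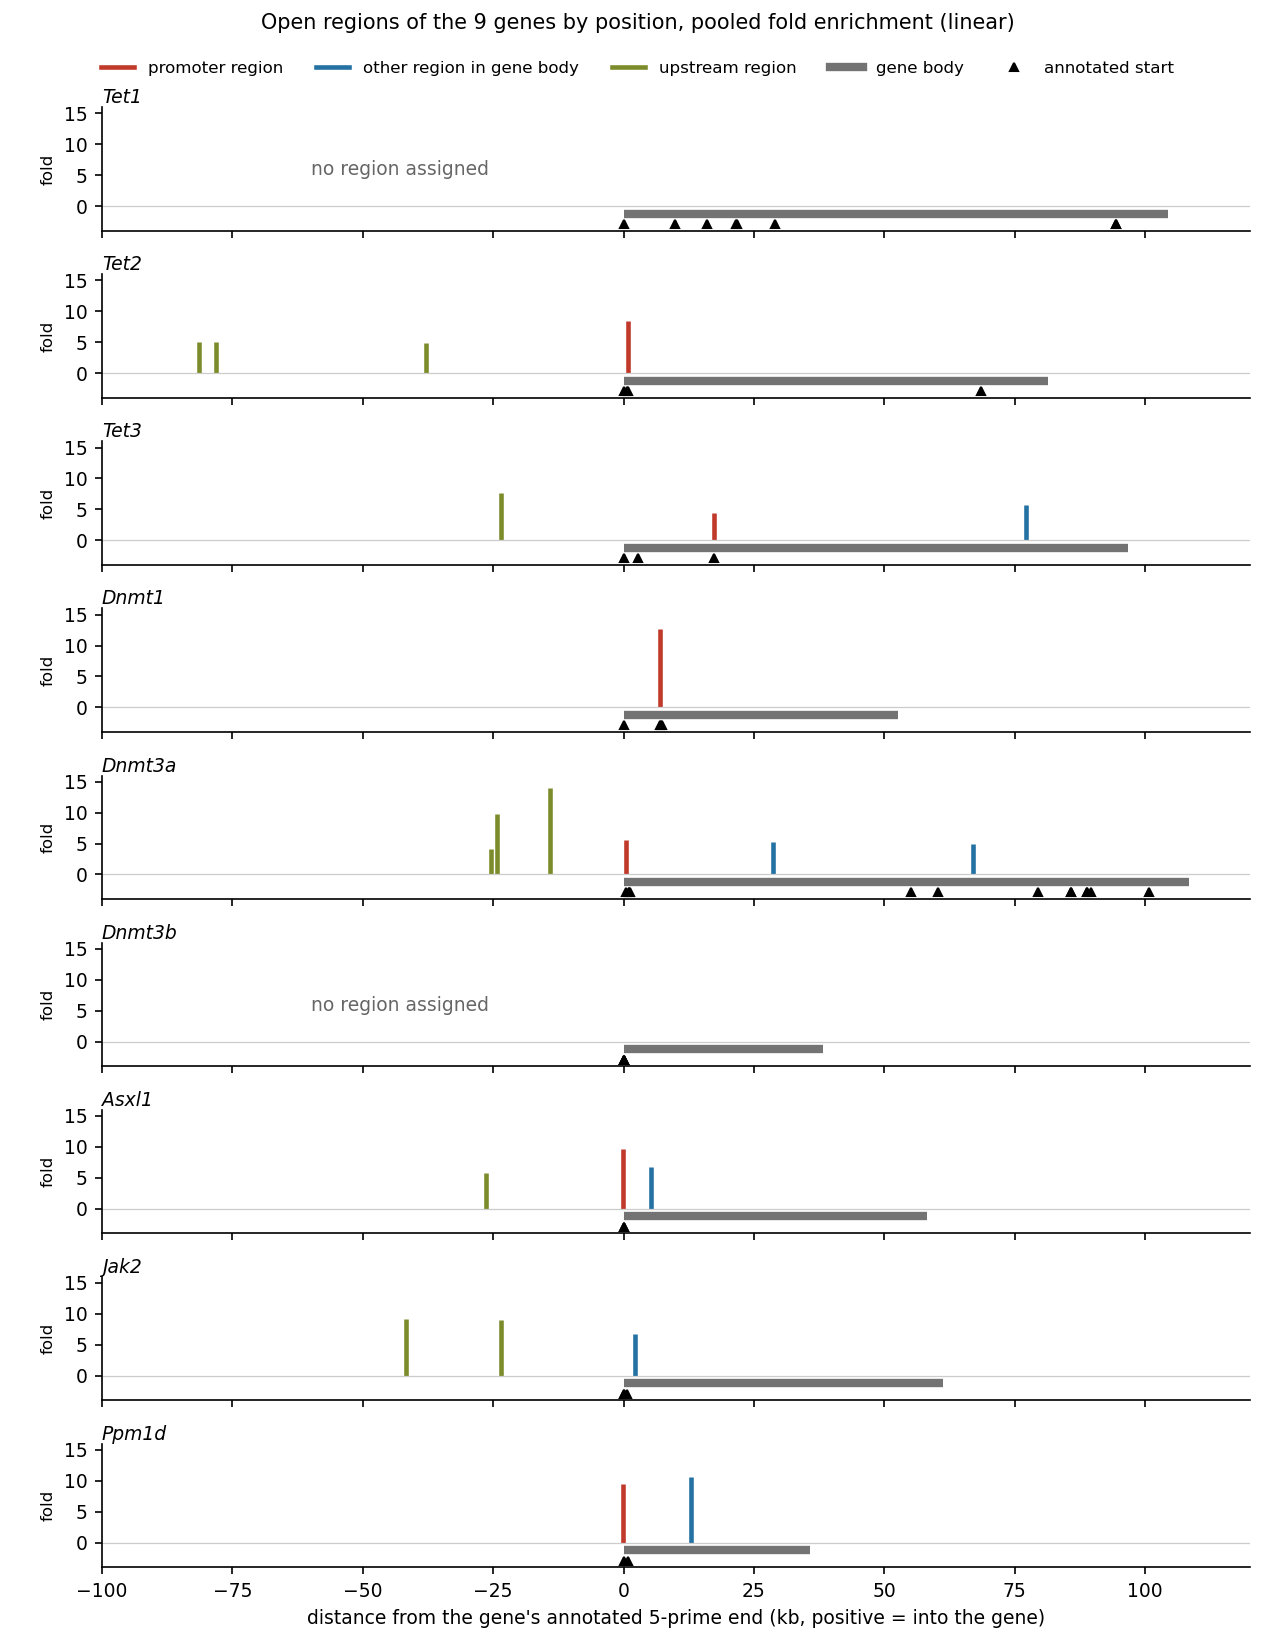
Open regions of each gene by position. The x axis is the distance in kb from the gene's annotated 5′ end (negative upstream), vertical bars are regions with the pooled fold enrichment (linear) as height, coloured by place, the grey bar is the gene body and triangles are annotated protein-coding starts. Dnmt3a has 6 bars, Tet1 and Dnmt3b none, and the Jak2 bar inside the gene stands beside the start and not on it.

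The height of a region is given below as its fold enrichment, a linear ratio over background that is the authors' own value for each peak. It describes a region within its list, so a region is placed by its percentile among all regions of its kind, 10589 promoter regions and 17849 distal ones. A distal region lies farther than 1 kb from every protein-coding start. Replicate values come from each replicate's own pseudoreplicated list, the looser of its lists. Each region is named by the distance of its summit from the annotated 5′ end of its gene, and all coordinates are on mm10.

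Among the TET genes, Tet2 had a mid-strength promoter and 3 weaker upstream regions. The gene spans positions 133463679 to 133545139 of chromosome 3 on the minus strand. Its promoter region at chr3:133543695-133544483 had a fold of 7.69 in replicate 1 and 9.14 in replicate 2, a mean of 8.42 ± 1.03 (SD, n = 2). The summit lay in the untranslated part of exon 1 of the transcripts Tet2-201 and Tet2-204, and the antisense gene Gm42567 starts 790 bp from it. The pooled fold, 8.42, was above 58.8% of promoter regions.

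The upstream regions of Tet2 lay outside every protein-coding gene. At 37.9 kb upstream (chr3:133582810-133583404) the fold was 4.17 in replicate 1 and 5.26 in replicate 2. The region 78.1 kb upstream (chr3:133623042-133623785) had 4.24 and 4.88, and the one 81.4 kb upstream (chr3:133626370-133626657) had 4.94 and 4.17. These 3 regions did not differ beyond their replicate ranges, all of them lay below both replicate values of the promoter, and their pooled folds were above 24.5 to 26.7% of distal regions. The outer pair lay 2.58 kb apart. Outside the promoter no conservative region fell in the Tet2 gene body, which is 81.5 kb long. The replicated set held a 4.09-fold region there (chr3:133525285-133525591), and replicate 1 listed another (chr3:133513485-133513713) with 3.83.

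The outer pair is shown because both hold a string of C/EBP on either strand within 100 bp of the summit. C/EBP is a family of transcription factors that act in myeloid cells, among others. Capitals mark TTGCNNAA (C/EBP), TGTGGTT (RUNX), CACGTG (E-box), ATTGGC (NFY, here as its complement GCCAAT overlapping the E-box by 1 base) and TGANTCA (AP-1). The sequences are from RefSeq's GRCm38, plus strand, chr3:133623164-133623364 and chr3:133626409-133626609.
Tet2 78.1 kb upstream: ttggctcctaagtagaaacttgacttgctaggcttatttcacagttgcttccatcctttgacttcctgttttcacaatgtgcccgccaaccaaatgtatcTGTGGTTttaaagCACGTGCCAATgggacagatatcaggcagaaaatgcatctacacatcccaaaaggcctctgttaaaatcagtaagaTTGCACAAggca
Tet2 81.4 kb upstream: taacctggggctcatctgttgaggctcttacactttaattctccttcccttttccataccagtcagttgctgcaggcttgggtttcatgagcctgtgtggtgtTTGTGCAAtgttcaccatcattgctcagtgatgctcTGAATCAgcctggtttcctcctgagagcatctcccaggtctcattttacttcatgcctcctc
The C/EBP string was in 2 of the 16 distal member regions, this pair, and in 13.5% of all distal regions. Over all distal regions the RUNX string was found in 9.67%, the AP-1 string in 11.3%, the E-box in 5.05% and the NFY string in 7.4%. The region 81.4 kb upstream held no CpG dinucleotide in this window.

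Tet3, the TET enzyme known for acting in the zygote and in differentiated cells, had a weak promoter and a stronger region upstream. On the minus strand of chromosome 6, Tet3 spans positions 83362373 to 83459084. The promoter region (chr6:83441496-83441842) was at the internal start of Tet3-202, 17.4 kb into the gene, with a fold of 3.89 in replicate 1 and 4.03 in replicate 2 (3.96 ± 0.105, n = 2). Its pooled fold of 4.39 was above 9.76% of promoter regions, the lowest of the 6 open promoters. The noncoding gene B230319C09Rik starts 75 bp from the same summit, so the opening cannot be given to either gene alone.

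The starts of Tet3-203 and Tet3-204 had no conservative region within 1 kb. In the looser replicated set a 2.79-fold region lay 192 bp from the Tet3-203 start, and a 3.52-fold region also reached within 1 kb of it. The region 23.6 kb upstream of Tet3 (chr6:83482310-83483061) lay in intron 4 of Dguok, the mitochondrial deoxyguanosine kinase gene, with 8.32 in replicate 1 and 7.68 in replicate 2. It stood above both replicate values of the Tet3 promoter and above 75.6% of distal regions. A further region lay in intron 4 of Tet3-202 (chr6:83381596-83382179), with 4.92 and 6.15, and the start nearest to it was that of Bola3, 32456 bp away.

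Tet1, which is best known from embryonic stem and germ cells, had no region by the rule. Its gene body covers positions 62804570 to 62908996 of chromosome 10 on the minus strand. The nearest region to any of its starts lay 11.1 kb away (chr10:62920124-62920946) at the promoter of Slc25a16, with a pooled fold of 9.58. In the replicated set a 5.33-fold region (chr10:62885993-62886391) appeared 1.21 kb inside the start of Tet1-207, which is also the RefSeq start. It had 3.56 in replicate 1 and 5.69 in replicate 2, and it passed neither of the thresholded sets of the series. A weaker region of the replicated set (chr10:62886511-62887219), with a fold of 2.99, lay 105 bp from the same start. Replicate 1 listed it with 3.26, and replicate 2 had no region there.

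Dnmt1, the maintenance methyltransferase, had a single region, the strongest promoter of the 9 genes. Dnmt1 spans positions 20907209 to 20959888 of chromosome 9 on the minus strand. The region (chr9:20952449-20953238) had a fold of 10.5 in replicate 1 and 12.1 in replicate 2, a mean of 11.3 ± 1.09 (n = 2). Both values were above those of the other 5 open promoters, and the pooled 12.6 was above 92.8% of promoter regions. Its summit lay 29 bp inside exon 1 of Dnmt1-201, the start used in somatic cells.

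The upstream start of Dnmt1-202 lay 6650 bp from this region and had none within 1 kb. In the replicated set the nearest region to it was 1704 bp away with a fold of 4.6. That region was listed in replicate 2 with 4.96, and replicate 1 had none there. Within 100 bp of the summit the Dnmt1 promoter held the NRF1 string GCGCATGCG, which 2.84% of promoter regions hold.

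Dnmt3a, the de novo methyltransferase most often mutated in clonal haematopoiesis, had the most regions in the conservative set, among them the one with the highest mean and pooled fold of the 22. On the plus strand of chromosome 12, the gene spans positions 3806007 to 3914443. The region 14.0 kb upstream of the gene (chr12:3791788-3792130) had a fold of 13.4 in replicate 1 and 11.5 in replicate 2, a mean of 12.4 ± 1.34 (n = 2). Its pooled fold of 14.0 ranked 99 among the 17849 distal regions, above 99.4% of them. Its replicate range overlapped that of the Dnmt1 promoter, which was the higher of the pair in replicate 2. The nearest protein-coding start, that of Dnmt3a-206, was 14.6 kb from the summit.

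This region also stood out by its bases. Its 13 CpG dinucleotides within 100 bp of the summit gave an observed over expected ratio of 0.709, above 95.6% of distal regions, whose median was 0.246. Its sequence is shown for that reason, on the plus strand at chr12:3791869-3792069 of RefSeq's GRCm38. Capitals mark the NFY string ATTGGC, here as its complement GCCAAT in 2 places, and CNCCTGGNG, a core of the CTCF motif.
Dnmt3a 14.0 kb upstream: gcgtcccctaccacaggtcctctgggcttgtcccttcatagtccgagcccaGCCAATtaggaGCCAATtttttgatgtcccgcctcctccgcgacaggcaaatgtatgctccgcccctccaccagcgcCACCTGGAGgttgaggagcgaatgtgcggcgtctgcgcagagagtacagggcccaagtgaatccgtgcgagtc
The NFY string was found in 7.4% of distal regions and the CTCF core in 7.5%. The CTCF core was added to the search after the sequences had been seen, as was the AGGAAGTG string below, so neither count is support for anything.

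A pair of regions 0.724 kb apart lay farther upstream of Dnmt3a, inside Dtnb, the gene of dystrobrevin beta. By the rule both were counted for Dtnb as well. The one 24.3 kb upstream (chr12:3781462-3781854) had 9.66 in replicate 1 and 8.94 in replicate 2, and its pooled 9.7 was above 92.3% of distal regions. The summit lay in an untranslated part of exon 20 of Dtnb-210. Its neighbour 25.5 kb upstream (chr12:3780375-3780737) was much lower, with 3.86 and 4.06, above 9.11% of distal regions, and lay in an intron of Dtnb. The pair did not overlap in its replicate ranges.

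The promoter of Dnmt3a was lower than the regions 14.0 and 24.3 kb upstream and higher than the one 25.5 kb upstream. Its region (chr12:3806259-3806593) had 5.41 in replicate 1 and 5.21 in replicate 2 (5.31 ± 0.143, n = 2), and the pooled 5.51 was above 23.1% of promoter regions. These relations held for both replicate values. The region ends 437 bp before the start of Dnmt3a-201 and covers that of Dnmt3a-206. Its bases are shown because the window is rich in GC (76.1%, above 97.8% of promoter regions) and held none of the 15 strings searched, on the plus strand at chr12:3806319-3806519.
Dnmt3a promoter: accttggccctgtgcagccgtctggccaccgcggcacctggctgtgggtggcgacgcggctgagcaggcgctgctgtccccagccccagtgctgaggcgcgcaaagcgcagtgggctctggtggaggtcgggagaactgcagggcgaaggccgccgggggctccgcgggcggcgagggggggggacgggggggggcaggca

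Inside Dnmt3a there were 2 weaker regions. In intron 1 of Dnmt3a-201, 28.6 kb from the 5′ end (chr12:3834463-3834930), replicate 2 had 4.92 and replicate 1 had no region, the sole member region missing from a replicate. In intron 5, 67.0 kb from the 5′ end (chr12:3872887-3873169), replicate 1 had 4.71 and replicate 2 had 3.87. The internal start shared by Dnmt3a-203 and RefSeq, which makes the short protein Dnmt3a2, had no conservative region within 1 kb. The replicated set listed a 2.4-fold region 209 bp from it, and neither replicate's own list had one within 1 kb. Of the 13 distinct protein-coding starts of Dnmt3a, 4 had a conservative region within 1 kb.

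Both intronic regions hold GAGGAAG, the string of PU.1 (the product of Spi1, a master regulator of myeloid cells), overlapping AGGAAGTG, a longer core of the ETS family to which PU.1 belongs. They are printed to show this overlap, on the plus strand at chr12:3834495-3834695 and chr12:3872928-3873128, with both strings in capitals. In the first the strings lie on the minus strand.
Dnmt3a 28.6 kb inside: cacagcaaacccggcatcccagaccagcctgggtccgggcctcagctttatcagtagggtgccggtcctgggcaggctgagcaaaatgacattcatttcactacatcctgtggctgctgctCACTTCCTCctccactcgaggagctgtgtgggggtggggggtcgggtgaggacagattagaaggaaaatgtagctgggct
Dnmt3a 67.0 kb inside: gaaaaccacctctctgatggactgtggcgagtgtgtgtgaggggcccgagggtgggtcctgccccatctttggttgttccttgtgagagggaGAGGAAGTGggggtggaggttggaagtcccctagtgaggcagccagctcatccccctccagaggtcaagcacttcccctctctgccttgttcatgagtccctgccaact
The PU.1 string was found in 24.6% of distal regions and AGGAAGTG in 12.0%.

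Dnmt3b, the other de novo methyltransferase, had no region by the rule. The gene spans positions 153649450 to 153687730 of chromosome 2 on the plus strand, and the nearest region lay 16.6 kb from a start (chr2:153632199-153632866) at the promoter of Commd7, with a pooled fold of 6.99. The replicated set held a 3.79-fold region just before the start (chr2:153648998-153649285), with 3.39 in replicate 1 and 3.27 in replicate 2. Asxl1, with its open promoter, lies on the same strand 303621 bp before it, measured between 5′ ends.

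Asxl1 encodes a polycomb group protein that acts with the histone H2A deubiquitinase BAP1, and the gene spans positions 153345829 to 153404007 of chromosome 2 on the plus strand. Its promoter and its upstream region had the smallest replicate SDs of the 21 regions with both values. The promoter region (chr2:153345203-153346113), the widest of the 22 at 911 bp, had 9.09 in replicate 1 and 9.02 in replicate 2, a mean of 9.05 ± 0.0429 (n = 2). The pooled 9.58 was above 70.9% of promoter regions. Its summit lay 160 bp before the start of Asxl1-205 and 141 bp from a start of the noncoding gene 2500004C02Rik. The opening therefore cannot be given to either gene alone.

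In intron 1, 5.21 kb from the 5′ end (chr2:153350647-153351252), the fold was 6.07 in replicate 1 and 6.61 in replicate 2, above 63.5% of distal regions by its pooled 6.78. The region 26.4 kb upstream (chr2:153319094-153319729) lay in intron 2 of Kif3b, a kinesin gene, with 5.42 in each replicate and a pooled 5.73. The promoter stood above the intronic region in both replicates, and the intronic region above the upstream one. The authors' other thresholded set of the series also held a 6.77-fold region 12.6 kb upstream (chr2:153333080-153333300), which the conservative set lacked. It had 7.89 in replicate 1 and 4.19 in replicate 2.

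The promoter and the intron of Asxl1 are printed as a contrast of composition, with 60.7% GC in the first and 40.8% in the second. They are on the plus strand at chr2:153345569-153345769 and chr2:153350936-153351136. Capitals mark GGGCGGG (SP and KLF factors, as the complement CCCGCCC) and CCGGAAG (ETS, as CTTCCGG) in the promoter, and GAGGAAG (PU.1) and TGANTCA (AP-1) in the intron.
Asxl1 promoter: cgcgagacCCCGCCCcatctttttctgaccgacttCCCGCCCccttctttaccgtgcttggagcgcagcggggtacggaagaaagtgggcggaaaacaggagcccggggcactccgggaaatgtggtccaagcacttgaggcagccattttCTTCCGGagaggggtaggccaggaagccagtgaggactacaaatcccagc
Asxl1 intron 1: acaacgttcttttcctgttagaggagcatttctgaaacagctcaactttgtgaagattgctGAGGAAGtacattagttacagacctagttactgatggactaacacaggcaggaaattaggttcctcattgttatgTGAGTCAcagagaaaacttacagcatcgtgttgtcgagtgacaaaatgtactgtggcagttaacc
The SP and KLF string was found in 38.8% of promoter regions and the ETS string in 17.5%.

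Jak2, the kinase that signals for the receptors of erythropoietin, thrombopoietin and GM-CSF, was the gene with strong regions but no conservative promoter region. On the plus strand of chromosome 19, Jak2 spans positions 29251828 to 29313080. The region 41.7 kb upstream (chr19:29209869-29210255) had 6.71 in replicate 1 and 8.98 in replicate 2, a mean of 7.84 ± 1.61 (n = 2), the widest replicate spread of the 9 genes. The region 23.5 kb upstream (chr19:29227994-29228577) had 7.8 and 6.87. Their pooled folds of 9.21 and 9.04 were above 89.8% and 88.6% of distal regions, and both lay outside protein-coding genes.

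In intron 1 of Jak2-201 (chr19:29253767-29254190) the fold was 7.28 in replicate 1 and 6.36 in replicate 2. This region was 1939 bp from the gene's 5′ end and 1326 bp from the start of Jak2-204, just outside the promoter window. At the start itself the authors' other thresholded set of the series held a 4.19-fold region (chr19:29251542-29251863). Replicate 2 listed it with 4.47 and replicate 1 had no region within 1 kb of a Jak2 start. All 3 conservative regions of Jak2 overlapped in their replicate ranges.

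The first and the third Jak2 region are printed because each holds a string that the other lacks, on the plus strand at chr19:29210014-29210214 and chr19:29253841-29254041. Capitals mark AGGAAGTG in the first and CNCCTGGNG in the second.
Jak2 41.7 kb upstream: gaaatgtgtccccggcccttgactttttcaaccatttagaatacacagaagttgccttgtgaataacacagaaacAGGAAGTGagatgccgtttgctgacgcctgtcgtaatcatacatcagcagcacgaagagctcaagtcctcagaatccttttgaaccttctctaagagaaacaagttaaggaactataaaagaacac
Jak2 intron 1: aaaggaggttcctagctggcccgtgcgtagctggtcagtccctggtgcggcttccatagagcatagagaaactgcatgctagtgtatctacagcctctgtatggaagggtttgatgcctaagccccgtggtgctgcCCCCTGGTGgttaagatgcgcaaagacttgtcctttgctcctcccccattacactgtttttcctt
Upstream, the CpG ratio of 0.56 was above 90.3% of distal regions although GC was only 42.3%.

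Ppm1d, the phosphatase that shuts off the p53 response, had an open promoter and an intronic region of nearly the same mean fold. Its gene body covers positions 85311244 to 85347066 of chromosome 11 on the plus strand. The promoter region (chr11:85310972-85311606) had 8.83 in replicate 1 and 9.05 in replicate 2, a mean of 8.94 ± 0.159 (n = 2), above 70.6% of promoter regions by its pooled 9.56. In intron 1, 12.9 kb from the 5′ end (chr11:85323916-85324289), the fold was 8.13 in replicate 1 and 9.77 in replicate 2, a mean of 8.95 ± 1.16 (n = 2). The ranges of the 2 regions overlapped. The pooled fold of the intronic one was 10.6, higher than that of the promoter, and ranked 805 among distal regions, above 95.5%.

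Both are printed because the promoter holds the full palindrome TGACGTCA of the cyclic AMP response element (CRE) and the intron holds strings of 3 families. They are on the plus strand at chr11:85311035-85311235 and chr11:85324017-85324217. Capitals mark GGGCGGG and TGACGTCA in the promoter, and CNCCTGGNG (as CTCCTGGGG), GAGGAAG (as CTTCCTC) and TGTGGTT in the intron.
Ppm1d promoter: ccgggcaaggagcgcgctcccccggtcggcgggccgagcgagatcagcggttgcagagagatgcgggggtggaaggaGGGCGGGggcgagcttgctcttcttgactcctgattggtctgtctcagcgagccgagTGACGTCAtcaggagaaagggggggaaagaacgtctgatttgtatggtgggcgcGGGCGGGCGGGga
Ppm1d intron 1: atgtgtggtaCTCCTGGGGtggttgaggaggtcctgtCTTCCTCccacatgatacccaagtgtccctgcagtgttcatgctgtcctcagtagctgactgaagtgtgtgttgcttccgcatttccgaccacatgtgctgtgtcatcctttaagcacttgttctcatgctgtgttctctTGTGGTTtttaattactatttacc
The CRE string was found in 3.48% of promoter regions.

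**Figure D2:**
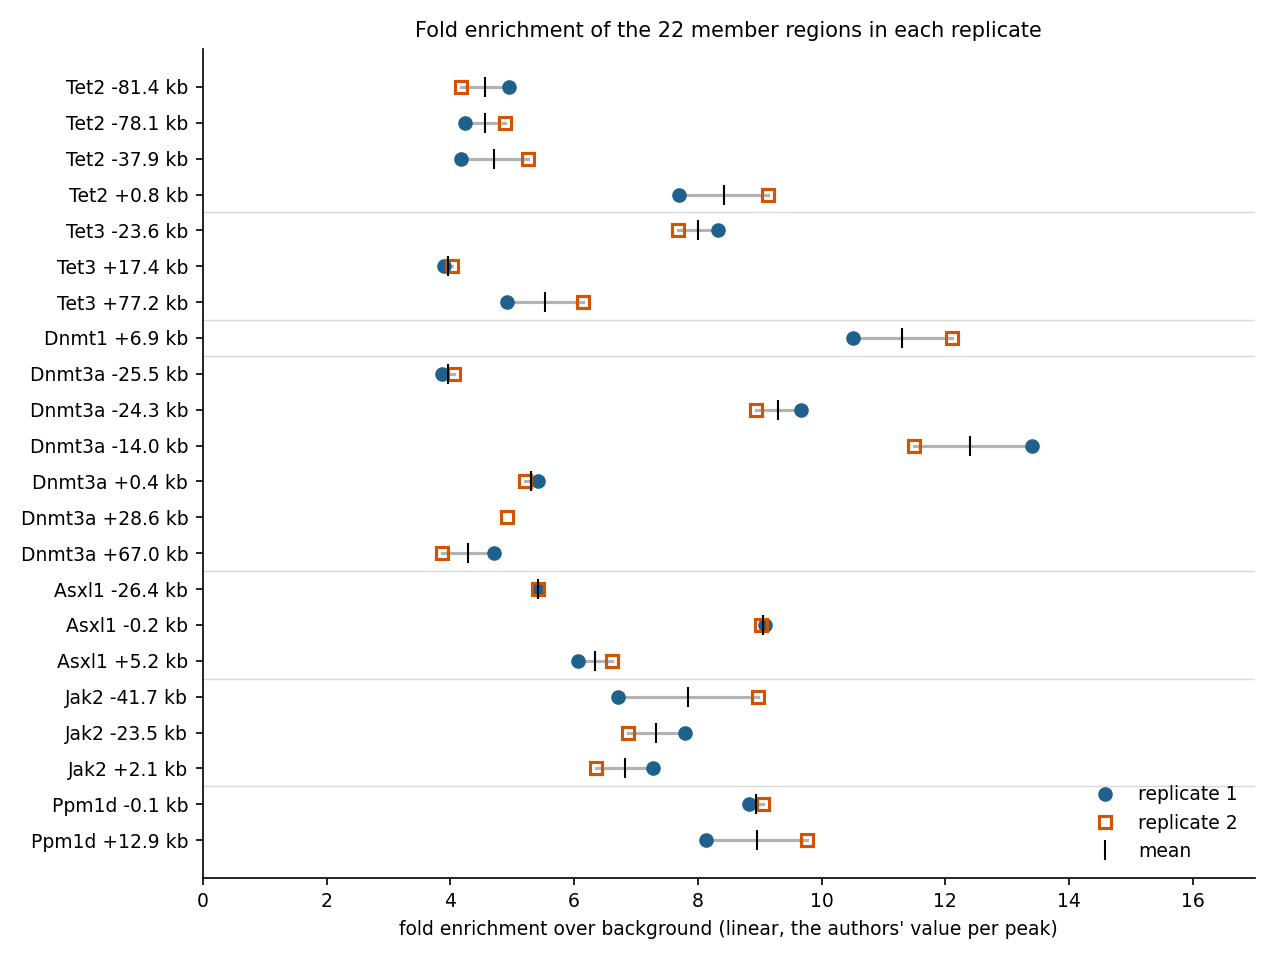
Fold enrichment (x axis, linear) of the 22 regions in replicate 1 (filled circles) and replicate 2 (open squares), with the mean as a bar and a line over the replicate range. Rows are grouped by gene and named by the signed distance to the gene's 5′ end. Dnmt1 and the Dnmt3a region 14.0 kb upstream lie above 10 in both replicates, and the intronic Dnmt3a row without a circle is the region missing from replicate 1.

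Across the 22 regions, 21 were found in replicate 1 and 22 in replicate 2, so 21 were in both, against 91.1% of all regions. The conservative set was itself drawn from both replicates, so this count is a description. In the stricter thresholded sets of each replicate 11 of the 22 were in both, against 50.3% of all regions. Of the 21 regions with both values, 11 were higher in replicate 2 and 9 in replicate 1 at 2 decimals, and the median log2 ratio of replicate 2 over replicate 1 was 0.04 (SD 0.21), beside −0.03 (SD 0.24) over all regions. Ordered by mean fold, 18 of the 20 neighbouring pairs overlapped in their replicate ranges. The Dnmt1 promoter stood apart above the Dnmt3a region 24.3 kb upstream, and the Asxl1 region 26.4 kb upstream stood apart, by a small margin, above the Dnmt3a promoter.

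The members' heights were spread over those of all regions. Their median pooled fold was 6.73, beside 6.49 over all regions. It was 8.99 at promoters, beside 7.64, and 6.21 at distal regions, beside 6.06. At or above the median of their kind were 4 of 6 promoter regions and 8 of 16 distal ones. The median width was 526 bp, with a range of 283 to 911 bp, beside 448 bp over all regions.

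**Figure D3:**
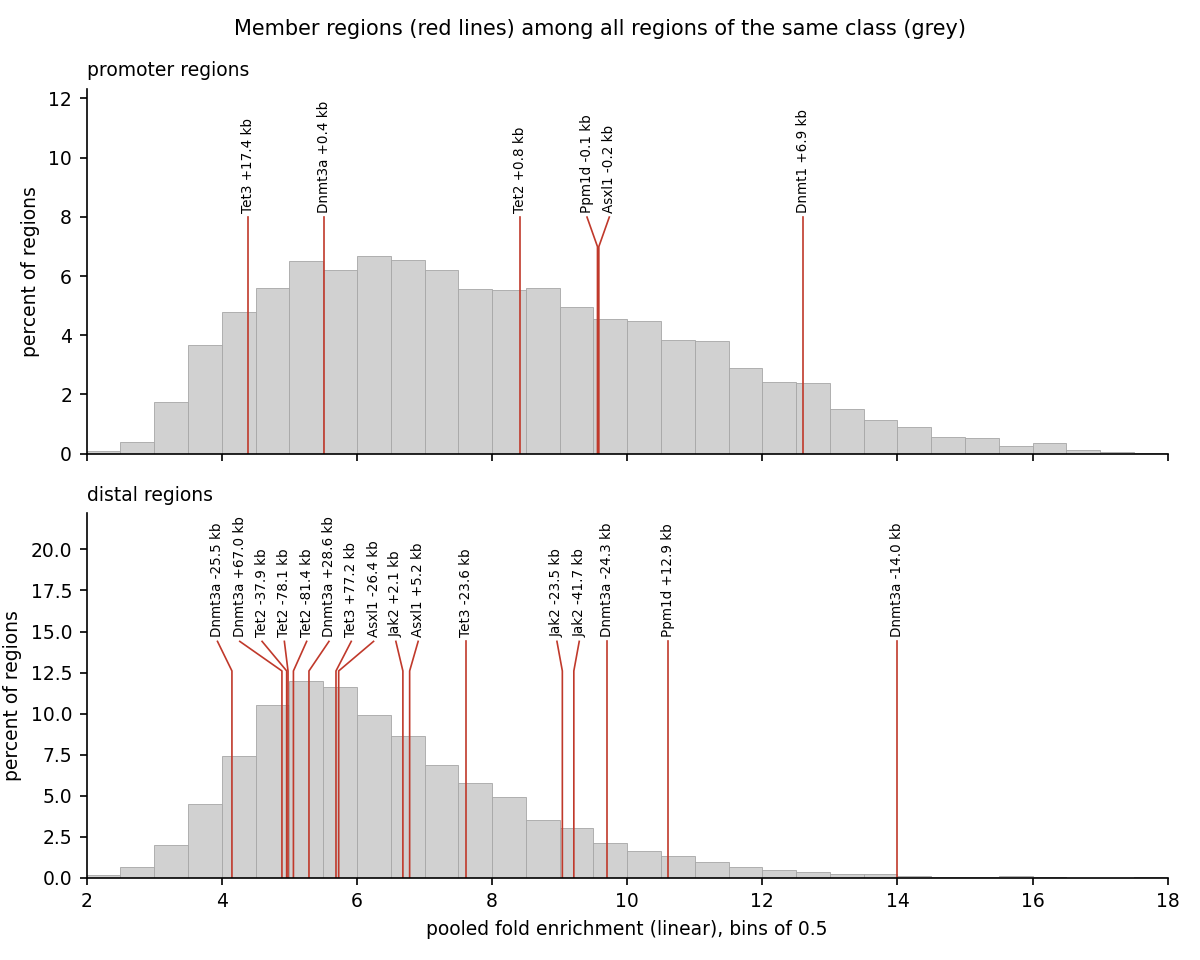
Pooled fold enrichment of all promoter regions (upper panel) and all distal regions (lower panel) as grey bars (percent of regions per bin of 0.5), with the member regions as red lines. The promoters of Tet3 and Dnmt3a lie at the low end (4.39 and 5.51) and that of Dnmt1 at the high end (12.6), and the Dnmt3a region 14.0 kb upstream lies in the far tail (14.0).

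The number of open promoters depended on how strict the list was. In the replicated set, the looser list of both replicates, all 9 genes had a region within 1 kb of a start, against 54.8% of protein-coding genes. The added promoters were Tet1 at 5.33, Jak2 at 4.19 and Dnmt3b at 3.79. In the thresholded set of replicate 2 alone 5 promoters were open, and in that of replicate 1 alone 4. Tet2, Dnmt1, Asxl1 and Ppm1d were the 4 promoters open in all 8 lists.

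**Figure D4:**
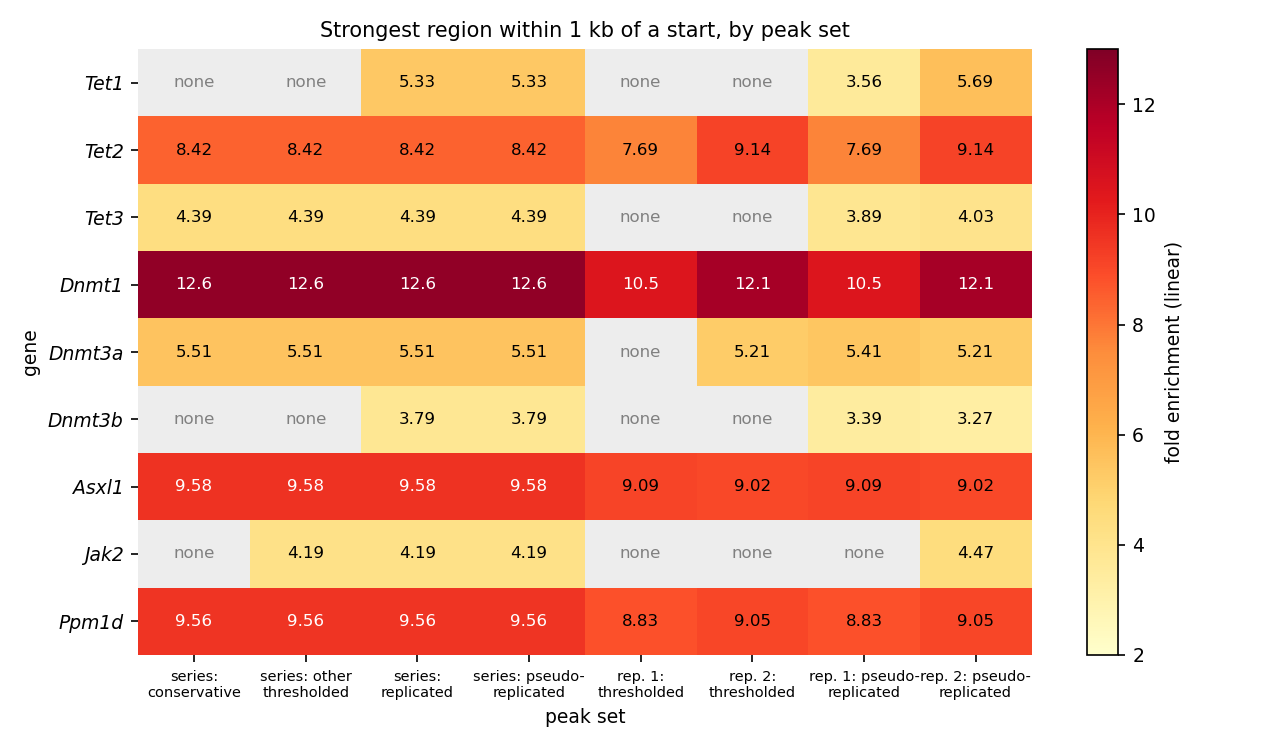
Fold enrichment (colour, linear, with the value printed) of the strongest region within 1 kb of a start of each gene (rows) in 8 deposited peak sets (columns, 4 of the series and 2 of each replicate). Grey cells hold no such region. The rows of Tet2, Dnmt1, Asxl1 and Ppm1d have a value in every column, and those of Tet1 and Dnmt3b in the 4 looser ones.

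Several of the genes have more than 1 start, and openness differed between them. Of the 43 distinct GENCODE starts of the 9 genes, 15 had a conservative region within 1 kb, against 43.5% of all distinct protein-coding starts. Genes with a CpG-rich start had an open promoter more often over the whole genome. When protein-coding genes were put in 5 equal classes by the CpG ratio within 500 bp of their CpG-richest start, 5.38% of genes had an open promoter in the lowest class and 77.8% in the highest. Tet2, Dnmt3a, Dnmt3b, Asxl1, Jak2 and Ppm1d were in the highest class, Tet1 and Tet3 in the fourth, where 73.7% were open, and Dnmt1 in the third, where 57.9% were. The classed start need not be the open one: the ratio of Tet3, 0.819, is that of Tet3-203, which had no conservative region, and the open start of Tet3-202 had 0.538. The 3 genes without a conservative promoter region thus had ratios of 0.709 (Tet1), 0.84 (Dnmt3b) and 0.901 (Jak2), all above the 0.621 of Dnmt1.

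Around the summits the 6 promoter regions had a median GC of 65.4%, beside 62.7% over all promoter regions, and a median CpG ratio of 0.699, beside 0.777. The 16 distal regions had 48.0% GC, beside 50.7%, and a CpG ratio of 0.252, beside 0.246. Of the 16, 7 held the PU.1 string, which was found in 24.6% of all distal regions. They lay at Dnmt3a (3), Asxl1 (2), Jak2 and Ppm1d, and none lay at Tet2 or Tet3. The CTCF core was in 4 of 16 and AGGAAGTG, at Tet3, Dnmt3a and Jak2, in 4 of 16, both searched after the sequences were seen. The STAT string TTCNNGGAA (in 2.99% of all promoter and 2.67% of all distal regions), the IRF string GAAANTGAA (1.23% and 2.38%) and the YY1 string AAGATGGCG (2.98% and 0.252%) were in none of the 22. Such matches describe the letters in a window and do not show that a factor was bound.

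**Figure D5:**
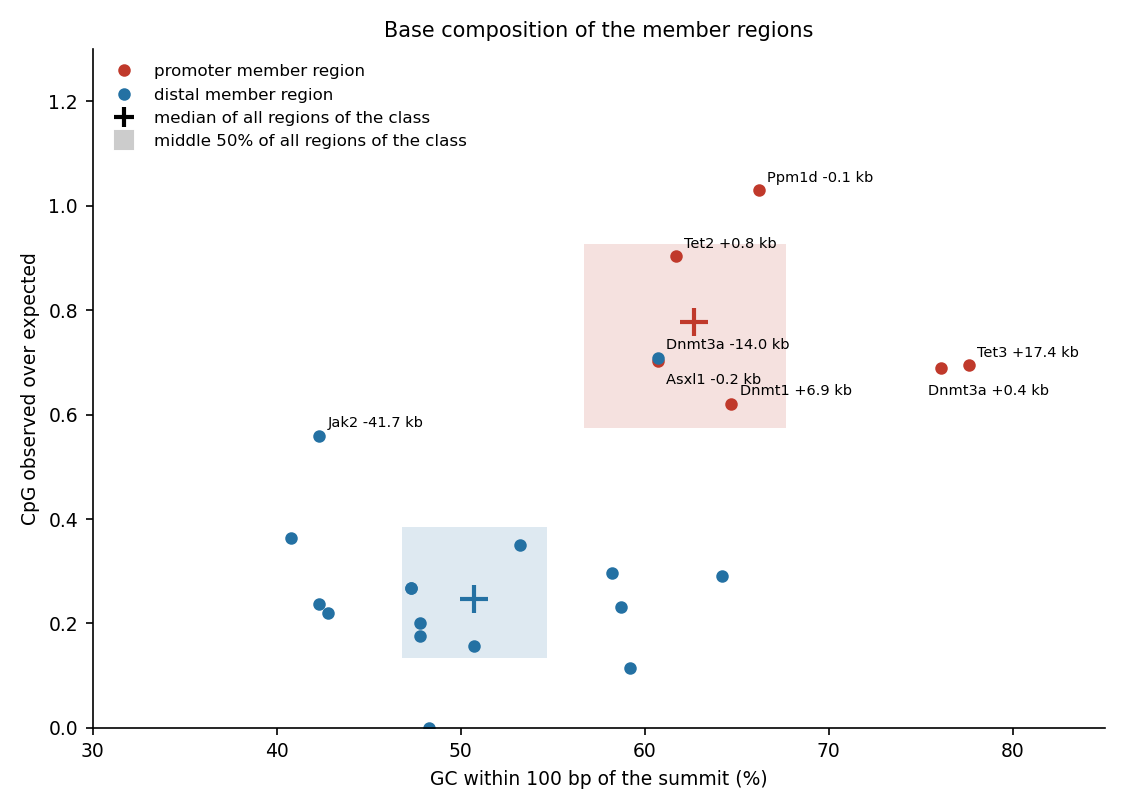
GC percent (x axis) and CpG observed over expected ratio (y axis) within 100 bp of the summit of each member region, promoters in red and distal regions in blue. Crosses are the medians and shaded boxes the middle 50% of all regions of the same kind. The Dnmt3a region 14.0 kb upstream lies among the promoters (0.709), and the other distal points, save the Jak2 one at 0.56, lie below 0.4.

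Genes of the same pathways were mostly open at their promoters. Of 30 further DNA methylation genes 28 had an open promoter (93.3%), with a median promoter fold of 8.14, and of 44 further genes mutated in clonal haematopoiesis or myeloid malignancy 38 had one (86.4%), with a median of 8.5. Over all protein-coding genes these values were 46.6% and 8.34. In the fourth and the highest CpG class above, 73.7% and 77.8% of genes were open. The part of CpG content in the shares of the lists was not tested. In the first list the most regions were at Idh2, which makes the cofactor of the TET enzymes (8 regions), and at the stress genes Gadd45a and Gadd45b (5 each), which came before Ahcy, Mbd2 and Gadd45g with equal counts by promoter fold. In the second they were at the haematopoietic transcription factor genes Etv6 (16) and Runx1 (13) and at Nf1, the negative regulator of RAS (9), with Cux1 at the same count.

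Genes of the lists with no assigned region were of 2 kinds. Apex1 (7.62), Atm (11.4) and Smc1a (11.3) had an open promoter whose region was assigned to a neighbouring gene. Cxxc4, Dnmt3l, Wt1, Kit and Gata2 had neither a region nor an open promoter. Among them Dnmt3l is the catalytically inactive partner of the de novo methyltransferases.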

How the data were processed

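Deposited ATAC-seq peak lists of 2 replicates of mouse blood monocytes were the starting point, on mm10 per the labels. Not given in the sources used here were the aligner, the program that called peaks, their versions and whether cut positions were shifted for Tn5. Per the labels, replicate 1 had library fragments in the size range 153 to 309 bp and replicate 2 in the range 156 to 312 bp. The authors called peaks within each replicate and from both together, per the deposited README, which also lists an input that it does not describe. The fold enrichment (a linear ratio over background) and the −log10 p of a peak are the authors' deposited values. An IDR score by the authors rates the agreement in rank between replicates, and 540 was the lowest deposited score in the conservative set.

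Chromosomes 1 to 19, X and Y were kept. Overlapping peaks became 1 region that took the highest fold and the summit with the smallest p, which turned 39944 peaks of the conservative set into 28438 regions. A merged region of a replicate that overlapped a conservative region by 1 bp or more gave that replicate's value. Gene models were from GENCODE M21, limited to protein-coding transcripts of 21853 protein-coding genes, and bases and further starts from RefSeq (GRCm38.p6). CpG ratios are observed over expected, and 15 strings were searched on both strands, 2 of them chosen after the sequences were seen. Annotated untranslated bases are not printed. The members, gene lists and strings were chosen with earlier results of these data known. All regions of the 9 genes are named, of the pathway lists the 3 genes with most regions (ties by promoter fold) and those with none, save items not reported here, and of promoters the neighbouring gene that shares a region. Counts were repeated with the other deposited sets, with the set of a single replicate, under a stricter threshold, with other windows, distances and overlaps, and without merging. The merging, assignment and overlap steps were tested on simulated data. Python 3.11.15, numpy 2.4.6, pandas 2.3.3, pysam 0.24.0, samtools 1.23.1 and matplotlib 3.10.9 were used.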

Additional observations from a re-analysis of the deposited data

How the results depend on the processing

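The 22 regions of the 9 genes became 59 in the replicated set and 60 in the pseudoreplicated set of the series, 11 when only regions at or above the median −log10 p were kept, and 10 when only gene bodies counted. Each replicate's thresholded set alone gave 13 to 15 regions, with 13 without replicate 2. The other thresholded set (26), a limit of 50 kb (20), gene 5′ ends as the only starts (25) and no merging (30) stayed within 1.5 times the count. Open promoters ranged from 4 to 9 under all alternatives, within 1.5 times the 6. Tet3 and Dnmt3a were lost under the stricter threshold and without replicate 2, Tet3 also without replicate 1, and Jak2 was gained with a window of 2 kb. Of the 22 regions, 11 and not 21 were in both replicates when the thresholded set of each was used. For the 7 genes with a region, 40 of 70 recounts stayed within 1.5 times, and Dnmt3a fell from 6 to 3 in either single-replicate list. The lists of the series repeat 1 pooled fold per promoter, so only the single-replicate lists bear on it. There 3 of 9 promoter folds lay within 1 SD, taken from the 2 replicate values, of the pooled value. That count does not measure agreement between replicates, since close replicates make the limit narrow and the pooled fold is from another list. The Asxl1 promoter, with 9.09 and 9.02 (SD 0.0429) beside a pooled 9.58, fell outside the limit. The cause of these moves was not tested. No paired analysis was possible because the samples form 1 group. Unknown depth limits what a missing region means, since a looser list held regions at all 3 genes without a conservative promoter.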
